A study of Homo sapiens and Mus musculus with 17 samples.

Results

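The protein disulfide isomerase (PDI) family was represented by 10 genes, namely PDIA3, PDIA4, PDIA5, PDIA6, P4HB, TXNDC5, TXNDC11, TXNDC12, ERP44 and ERP29. They were chosen by symbol, ignoring case, and each had 1 row among the 62714 genes of the HEK293T table and 1 row among the 55491 genes of the mouse table. The study measured polyA-selected RNA in cells and tissue with and without SEL1L-HRD1 ER-associated degradation (ERAD), a pathway in which the scaffold SEL1L and the ubiquitin ligase HRD1, encoded by SYVN1, bring misfolded proteins of the endoplasmic reticulum (ER) to the proteasome. HEK293T, a human embryonic kidney cell line, gave 3 WT, 3 SEL1L KO and 3 HRD1 KO cultures, and both knockouts were made with CRISPR-Cas9. Whether each knockout line was 1 clone is not given in the labels. Brown adipose tissue (BAT) of C57BL/6J mice aged 12 weeks gave 3 WT, 3 SEL1L KO (Sel1l flox/flox; Ucp1-Cre) and 2 HRD1 KO (Hrd1 flox/flox; Ucp1-Cre) libraries. The Ucp1 promoter drives Cre in brown adipocytes, so the other cells of the tissue keep the floxed gene intact, and no label gives a Cre-only control.

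Proteins that enter the ER acquire disulfide bonds there, and members of the PDI family make, break and rearrange these bonds with active sites that resemble thioredoxin. The oxidases ERO1A and ERO1B and the peroxiredoxin PRDX4 return the oxidizing equivalents that the family consumes, and the same enzymes can reduce misfolded proteins before they leave the ER for degradation. Several family members are known targets of the unfolded protein response (UPR), in which the transcription factors ATF6 and XBP1 raise the genes of ER folding enzymes. In brown adipocytes the proteins that acquire disulfides in the ER include lipoprotein lipase and adiponectin.

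Short promoter elements are known for this response, and the promoters of the members that the results turn on are shown to place them. The ER stress response element (ERSE) reads CCAAT, 9 bases, then CCACG, and the UPR element (UPRE) reads TGACGTGG. RefSeq promoter windows of GRCh38.p14, from 250 bases before to 50 bases after a start, matched 9 of the 10 members in 13 windows. Both strands were searched, and an ERSE contains a CCAAT and a CCACG while a UPRE holds the CCACG letters on its other strand. An exact ERSE lay in 27 of all 35116 windows (0.0769%) and in 1 member, PDIA6, from 86 to 68 bases before its start. An exact UPRE lay in 256 windows (0.729%) and in 2 members, TXNDC5 and TXNDC11. A CCAAT alone lay in 34.6% of all windows and in 6 of the 13 member windows, from 5 members. The capitals below mark the fixed letters of the ERSE in PDIA6, the CCAAT boxes in PDIA4 and P4HB, and the UPRE at a second RefSeq start of TXNDC5. All are written along the minus strand, 5′ to 3′, and cover no annotated exon:
PDIA6, chr2:10812841-10812965: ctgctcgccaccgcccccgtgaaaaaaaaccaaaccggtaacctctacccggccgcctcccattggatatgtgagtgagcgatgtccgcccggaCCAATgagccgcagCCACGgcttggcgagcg
PDIA4, chr7:149028663-149028740: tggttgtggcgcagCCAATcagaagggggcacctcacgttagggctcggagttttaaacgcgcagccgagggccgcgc
P4HB, chr17:81860625-81860698: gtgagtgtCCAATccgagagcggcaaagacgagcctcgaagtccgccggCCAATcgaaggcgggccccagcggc
TXNDC5, chr6:7910128-7910227: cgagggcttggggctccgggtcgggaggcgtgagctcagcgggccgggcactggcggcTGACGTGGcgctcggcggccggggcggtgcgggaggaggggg
Among the 18 genes of a list of UPR targets, 4 held an exact ERSE (CRELD2, HSP90B1, HSPA5 and XBP1). These matches describe the letters of the windows and do not show that a factor was bound.

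Levels are FPKM, in which fragments are divided by transcript length and by the total of the library, so that genes can be compared with each other. The deepest library had 1.9 times the depth of the shallowest in HEK293T and 1.74 times in BAT, as judged from the value of a single fragment in barely detected genes. SEL1L was lower in all 3 SEL1L KO cultures (1.82, 3.36 and 2.59 FPKM) than in WT (4.39, 8.74 and 12.85). SYVN1 was not lower in the HEK293T libraries labelled HRD1 KO (22.47, 18.48 and 19.83) than in WT (16.95, 16.7 and 16.92). In BAT, Syvn1 was 14.05 and 13.77 in the libraries labelled HRD1 KO against 5.2 to 5.65 in WT, and Sel1l was 25.2, 8.17 and 8.38 in those labelled SEL1L KO against 9.1 to 12.88 in WT. FPKM sums a whole gene and does not show which exons a transcript kept, so these groups are named by their labels. Markers of brown adipocytes summed to 17100 to 24800 FPKM in every BAT library, mostly from Fabp4, with none of the 10 genes at 0. The 6 embryonic kidney markers summed to 64.6 to 180 FPKM in HEK293T, although NEFM was 0.34 and 0.11 in SEL1L KO replicates 1 and 2 against 50.89 in replicate 3. BAT library SEL1L KO replicate 1 stood apart, with Ppargc1a at 387.05 FPKM against at most 14.39 in the other 7 libraries and Syvn1 at 118.36, and results are given with and without it. Replicates are given by the labels. The study's methods speak of independent repeats in general, the labels do not say how cultures of a group were kept apart, and p-values measure the spread between these libraries.

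In HEK293T cells, PDIA4 rose the most of the 10 members under both labels, and PDIA6 rose in the libraries labelled HRD1 KO. Of the other members, PDIA3, P4HB, PDIA5 and ERP44 had higher FPKM in every library labelled HRD1 KO than in any WT library without passing the adjusted threshold. TXNDC11, TXNDC12, ERP29 and TXNDC5 lay within the WT range in part. Calls used limma on log2(FPKM + 0.1) over 15796 genes at a Benjamini-Hochberg adjusted p under 0.05, and all 10 members passed the filter on low values. In HRD1 KO against WT 2 members were called higher and 0 lower, where 9 of all genes (0.057%) were called higher. In SEL1L KO against WT 1 member was called higher, where 5 of all genes (0.0317%) were. The same-numbered HEK293T libraries deviated together, and with the replicate number as a block 4 members were called in HRD1 KO (PDIA4, PDIA6, PDIA3 and P4HB; 0.152% of all genes) and 2 in SEL1L KO (PDIA4 and PDIA6; 0.076%). The median log2 fold change of the 10 members was 0.79 in HRD1 KO and 0.55 in SEL1L KO, beside medians of -0.05 and -0.06 over all genes tested.

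**Figure D1:**
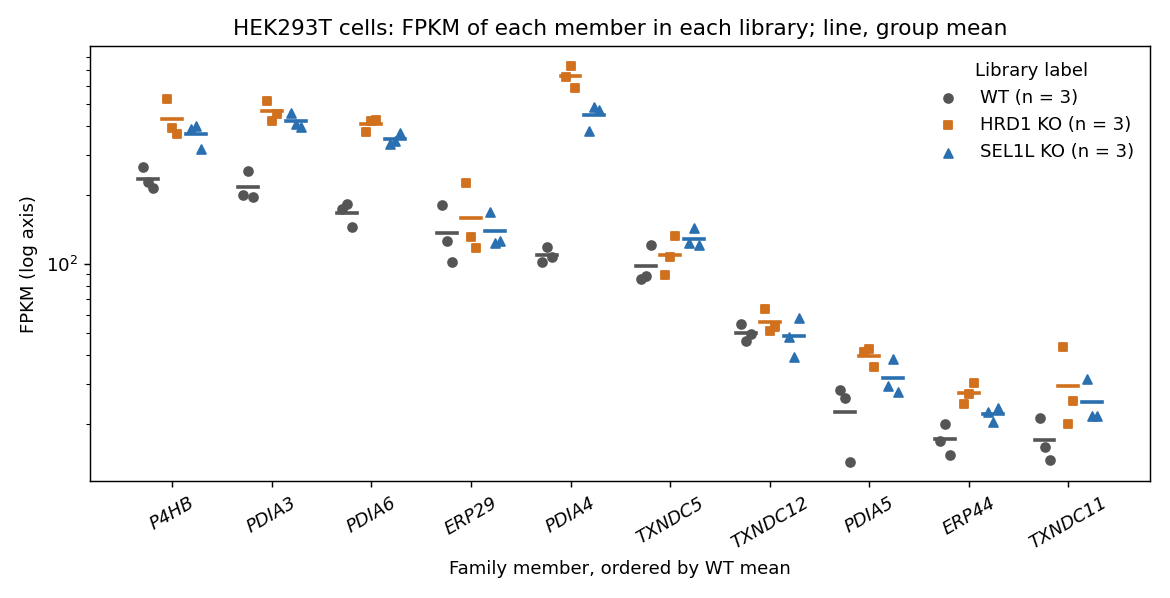
FPKM (log axis) of the 10 members in each of 9 HEK293T libraries, ordered by WT mean, with points for libraries and lines for group means. PDIA4 is at 101.84 to 119.04 FPKM in WT, with SEL1L KO at 380.54 to 484.01 and HRD1 KO at 589.43 to 734.01, while TXNDC12 and ERP29 overlap between the groups.

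PDIA4 (ENSG00000155660, chr7:149003062-149028662, minus strand of GRCh38), also known as ERp72, is a luminal isomerase with several thioredoxin-like active sites. Its FPKM was 101.84, 119.04 and 107.65 in WT, 658.6, 734.01 and 589.43 in the libraries labelled HRD1 KO, and 380.54, 484.01 and 470.67 in SEL1L KO. The 3 groups did not overlap, with HRD1 KO highest. The mean was 6.03 times that of WT in HRD1 KO and 4.06 times in SEL1L KO. The log2 fold changes were 2.59 ± 0.16 (SE; adjusted p = 0.000348, limma, n = 3 against 3) and 2.02 ± 0.16 (adjusted p = 0.00377). PDIA4 kept its call in HRD1 KO without any 1 library, and lost it in SEL1L KO without SEL1L KO replicate 2 (1.95, adjusted p = 0.0543, limma). Of the CCAAT boxes of its promoter window, 1 is the box shown above, 236 bases before the start.

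PDIA6 (ENSG00000143870, chr2:10783391-10837977, minus strand), an isomerase also known as P5 that is found with the chaperone HSPA5, carried the ERSE shown above, before a start inside this span. Its FPKM was 173.13, 181.89 and 145.36 in WT, 378.56, 420.91 and 424.55 in the libraries labelled HRD1 KO, and 333.95, 345.9 and 373.75 in SEL1L KO. Every knockout library lay above every WT library. The log2 fold change was 1.29 ± 0.15 (adjusted p = 0.0252, limma) in HRD1 KO, and 1.08 ± 0.15 in SEL1L KO, where it missed the threshold (adjusted p = 0.0751, limma) and passed it with the replicate block (adjusted p = 0.0182). The call in HRD1 KO was lost when any 1 of 7 libraries was left out (all but HRD1 KO replicates 1 and 3), with log2 fold changes of 1.20 to 1.36 over all such fits. With the replicate block it stood at an adjusted p of 0.00421 (limma).

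PDIA3 (ENSG00000167004, chr15:43746394-43773279, plus strand), or ERp57, forms disulfides in glycoproteins held by calnexin and calreticulin. FPKM values were 201.05, 254.83 and 195.69 in WT, 516.01, 420.49 and 453.53 in the libraries labelled HRD1 KO, and 457.19, 410.05 and 395.32 in SEL1L KO. Both knockouts were fully above WT. The changes of 1.10 ± 0.17 and 0.96 ± 0.17 on the log2 scale did not pass (adjusted p = 0.0861 and 0.253, limma). With the replicate block the first did (adjusted p = 0.0202, limma) and the second did not (0.0629). The pseudogene PDIA3P1 was listed at 1.51 to 3.59 FPKM, and reads shared between the copies were divided by estimate.

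P4HB (ENSG00000185624, chr17:81843159-81860856, minus strand) is PDI itself, which also serves as a subunit of collagen prolyl 4-hydroxylase and of microsomal triglyceride transfer protein. It was the most abundant member in WT by its mean, at 264.91, 228.53 and 213.99 FPKM, although its range overlapped that of PDIA3. The libraries labelled HRD1 KO gave 527.18, 392.21 and 368.42, and SEL1L KO gave 388.81, 398.96 and 317.58. All 6 were above WT, with log2 fold changes of 0.85 ± 0.19 and 0.64 ± 0.19 (adjusted p = 0.665 and 1, limma). The replicate block brought the first to an adjusted p of 0.0382 and the second to 0.213 (limma).

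Among the less abundant members, PDIA5 (ENSG00000065485, chr3:123067025-123225227, plus strand), an isomerase also called PDIR, was 28.24, 25.86 and 13.71 in WT, 41.44, 42.52 and 35.33 in the libraries labelled HRD1 KO and 29.4, 38.33 and 27.66 in SEL1L KO. ERP44 (ENSG00000023318, chr9:99979185-100099052, minus strand), which retrieves ERO1 oxidases and unassembled proteins to the ER, was 16.79, 20.06 and 14.6, then 24.58, 27.11 and 30.34, and 22.67, 20.47 and 23.41 FPKM in the same order. TXNDC11 (ENSG00000153066, chr16:11679083-11742857, minus strand), a membrane-bound partner of dual oxidases and of EDEM mannosidases, was 21.27, 15.93 and 13.89, then 43.18, 20.01 and 25.12, and 31.3, 21.63 and 21.78. Of these, PDIA5 and ERP44 were above WT in all 3 libraries labelled HRD1 KO, and ERP44 and TXNDC11 in all 3 SEL1L KO libraries. The log2 fold changes were 0.88 ± 0.28 and 0.54 ± 0.28 for PDIA5, 0.68 ± 0.19 and 0.38 ± 0.19 for ERP44, and 0.73 ± 0.31 and 0.55 ± 0.31 for TXNDC11, and none was called in either knockout (each adjusted p = 1, limma). TXNDC11 rested in part on HRD1 KO replicate 1, without which its change was 0.42.

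The remaining 3 members had the smallest log2 fold changes in HRD1 KO. TXNDC5 (ENSG00000239264, chr6:7881517-7910788, minus strand), or ERp46, an isomerase with repeated thioredoxin-like domains, was 85.72, 88.69 and 120.75 FPKM in WT, 89.47, 106.78 and 132.17 in the libraries labelled HRD1 KO, and 123.04, 142.85 and 121.61 in SEL1L KO. TXNDC12 (ENSG00000117862, chr1:52020131-52055191, minus strand), a small single-domain oxidoreductase, was 54.54, 46 and 49.61, then 63.38, 51.09 and 52.82, and 47.85, 39.3 and 58.05. ERP29 (ENSG00000089248, chr12:112013348-112023449, plus strand), a chaperone of the family that lacks the active-site cysteine pair, was 180.51, 125.7 and 101.97, then 226.18, 130.92 and 117.47, and 168.87, 123.88 and 125.65. These ranges overlapped WT except for TXNDC5 in SEL1L KO, where the lowest library was at 121.61 and the highest WT library at 120.75. The 95% intervals of the log2 fold change in HRD1 KO were -0.30 to 0.60 for TXNDC5, -0.28 to 0.58 for TXNDC12 and -0.45 to 0.84 for ERP29. Without HRD1 KO replicate 1, the value of ERP29 was -0.09. Several members overlap other genes (TXNDC12 with KTI12, PDIA6 with ATP6V1C2, TXNDC11 with SNN, TXNDC5 with its readthrough BLOC1S5-TXNDC5), and reads that fit both were divided by estimate. The human readthrough was at most 0.85 FPKM.

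By libraries alone, 6 members were higher in every library labelled HRD1 KO than in any WT library (1.96% of all genes were), and 7 in SEL1L KO (2.41%). Between the knockouts, no member passed the test and 0% of genes were called higher. At limma's unadjusted p under 0.05, 1.18% of genes were higher and 1 member among them, PDIA4. Its log2 difference was 0.57 ± 0.16 (95% interval 0.21 to 0.94, adjusted p = 1). PDIA4, PDIA6 and ERP44 were above every SEL1L KO library in all 3 libraries labelled HRD1 KO, as were 2.67% of all genes. The 95% interval was -0.12 to 0.55 for PDIA6 and -0.23 to 0.51 for PDIA3. The lowest end among the other members was that of TXNDC5 (-0.70 to 0.20) and the highest that of PDIA5 (-0.29 to 0.95), and each of these intervals holds 0.

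In BAT, the whole family was lower in WT than in HEK293T WT in FPKM, at a sum of 251 ± 6.93 (SD, n = 3) against 1070 ± 83.2 (n = 3), though the tables were normalized separately and come from different species. Genes of the mitochondrial genome took 44.3% to 45.5% of all FPKM in WT BAT and 9.94% to 15.2% in WT HEK293T. Their part in this difference was not tested. In the libraries labelled HRD1 KO, Pdia6, Txndc5 and Txndc11 rose, and Pdia6 rose in those labelled SEL1L KO. Pdia4 had the largest log2 fold change in both comparisons, with Pdia3 close to Pdia6, and neither passed; library SEL1L KO replicate 1 lay far above the rest for both. Txndc12 and Erp44 had the smallest changes in HRD1 KO. Calls were made over 12473 genes at an adjusted p under 0.01, and all 10 members passed the filter on low values. In HRD1 KO against WT 3 members were called higher and 0 lower, where 36 of all genes (0.289%) were called higher. In SEL1L KO against WT 1 member was called, where 11 of all genes (0.0882%) were. At an adjusted p under 0.05 the counts were 5 in HRD1 KO (4.38% of all genes) and 4 in SEL1L KO (0.689%). Without SEL1L KO replicate 1, which also enters the shared spread, they were 7 (5.91%) and 4 (0.398%) at 0.01.

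**Figure D2:**
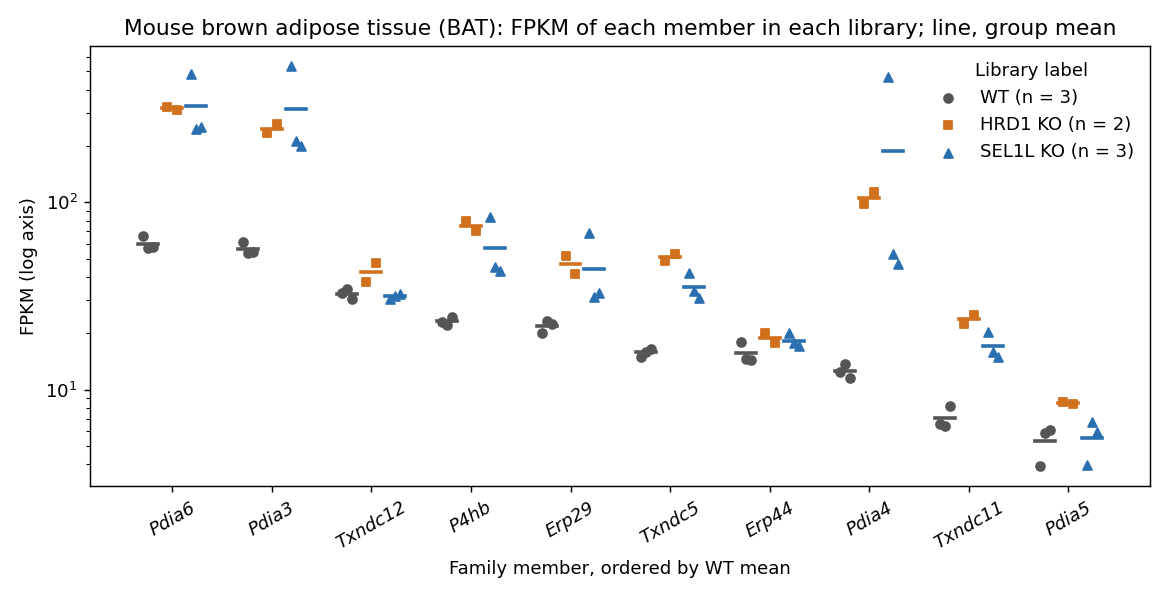
FPKM (log axis) of the 10 members in each of 8 BAT libraries, ordered by WT mean, with points for libraries and lines for group means. In SEL1L KO, replicate 1 is the highest point of Pdia3 (534.74), Pdia4 (464.08) and Pdia6 (485.01), and the 2 HRD1 KO libraries lie close together.

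The BAT calls changed with the scaling and with the number of libraries. The median log2 fold change over all genes was 0.42 in HRD1 KO and 0.09 in SEL1L KO, and genes of the mitochondrial genome took 34.4% and 41.3% of all FPKM in the libraries labelled HRD1 KO against 44.3% to 45.5% in WT. Scaled by median ratios, no member was called at 0.01, where 0% of all genes were called higher in either comparison, and at 0.05 the members called were 3 in HRD1 KO (0.553% of all genes) and 1 in SEL1L KO (0.257%). The median of the 10 members was 1.68 in HRD1 KO and 1.19 in SEL1L KO as deposited, and 1.26 and 1.10 after median-ratio scaling, where the median of all genes was 0.01 in both. Leaving out any 1 library other than SEL1L KO replicate 1 left 0 or 1 member called in either comparison, while the log2 fold changes in HRD1 KO stayed at 2.36 to 2.46 for Pdia6, 1.62 to 1.74 for Txndc5 and 1.66 to 1.85 for Txndc11 over all 8 such fits. With quantile normalization 0.0641% of all genes were called higher in HRD1 KO and 0% in SEL1L KO, and with the replicate block 0% in both, with no member among them.

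Pdia6 (ENSMUSG00000020571, chr12:17266545-17284770, plus strand of GRCm38) was the most abundant member in WT BAT by its mean, at 65.85, 57.15 and 57.92 FPKM. Libraries labelled HRD1 KO held 322.86 and 312.32, and those labelled SEL1L KO 485.01, 246.26 and 253.35. No knockout library came near WT. The mean rose 5.27 times and 5.44 times, with log2 fold changes of 2.40 ± 0.28 (adjusted p = 0.0075, limma, n = 2 against 3) and 2.37 ± 0.25 (adjusted p = 0.00945, n = 3 against 3). After median-ratio scaling they were 1.98 (adjusted p = 0.0431, limma) and 2.28 (0.0337). Without SEL1L KO replicate 1 the second was 2.05.

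Txndc5 (ENSMUSG00000038991, chr13:38500079-38528824, minus strand) was 15.04, 15.88 and 16.6 FPKM in WT, 48.7 and 53.28 in the libraries labelled HRD1 KO, and 42.12, 33.53 and 30.88 in those labelled SEL1L KO. Txndc11 (ENSMUSG00000022498, chr16:11074911-11134650, minus strand) was 6.55, 6.45 and 8.19, then 22.38 and 25.1, and 20.3, 15.93 and 14.98. Both genes had their 3 groups apart, with HRD1 KO highest and WT lowest. Their log2 fold changes in HRD1 KO were 1.68 ± 0.18 and 1.74 ± 0.21 (adjusted p = 0.00681 and 0.00797, limma). In SEL1L KO they were 1.15 ± 0.16 and 1.26 ± 0.18 and did not pass 0.01 (adjusted p = 0.0243 and 0.0318, limma). Without SEL1L KO replicate 1 the SEL1L KO changes were 1.02 and 1.13 (adjusted p = 0.00828 and 0.0139, limma), and only Txndc5 passed. Median-ratio scaling lowered the HRD1 KO values to 1.26 and 1.32 (adjusted p = 0.0431 and 0.0452, limma). In HEK293T the same gene TXNDC5 had a change of 0.15 in HRD1 KO, and whether cells and tissue differ in this was not tested.

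Pdia3 (ENSMUSG00000027248, chr2:121413775-121438687, plus strand) was 61.16, 53.53 and 54.68 FPKM in WT, 234.7 and 260.93 in the libraries labelled HRD1 KO, and 534.74, 211.83 and 200.95 in those labelled SEL1L KO. Pdia4 (ENSMUSG00000025823, chr6:47796141-47813430, minus strand) was 12.45, 13.73 and 11.51, then 97.73 and 113.92, and 464.08, 52.8 and 46.68. P4hb (ENSMUSG00000025130, chr11:120560298-120573253, minus strand) was 23.06, 22.18 and 24.36, then 79.9 and 70.07, and 84.06, 45.16 and 42.79. Each knockout library was above each WT library for these genes, and SEL1L KO replicate 1 was the highest of all 8. None was called at 0.01 in either comparison. The log2 fold changes in HRD1 KO were 2.13 ± 0.38 for Pdia3 (adjusted p = 0.0261), 3.06 ± 0.85 for Pdia4 (0.0731) and 1.69 ± 0.28 for P4hb (0.0208, limma). In SEL1L KO they were 2.33 ± 0.34 (0.0318), 3.05 ± 0.76 (0.102) and 1.23 ± 0.25 (0.0692). Without SEL1L KO replicate 1, the SEL1L KO change of Pdia4 was 1.98 ± 0.14 (adjusted p = 0.000784, limma) and that of Pdia3 was 1.87 (0.000437), and the HRD1 KO changes kept their size while their adjusted p fell to 4.8e-05 and 0.000114. In that fit P4hb was at 1.69 in HRD1 KO (adjusted p = 0.00048), which passed 0.01, and at 0.92 in SEL1L KO (0.0109, limma).

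Erp29 (ENSMUSG00000029616, chr5:121428590-121452506, minus strand) was 20.22, 23.22 and 22.49 FPKM in WT, 51.92 and 41.59 in the libraries labelled HRD1 KO, and 68.58, 31.16 and 32.71 in those labelled SEL1L KO. All knockout libraries were above WT, with log2 fold changes of 1.08 ± 0.33 and 0.91 ± 0.29 (adjusted p = 0.0888 and 0.164, limma). Without SEL1L KO replicate 1 they were 1.08 and 0.54 (adjusted p = 0.00312 and 0.0715, limma), the first of which passed 0.01. With all libraries and median-ratio scaling they were 0.66 and 0.82 (adjusted p = 0.401 and 0.278, limma). Pdia5 (ENSMUSG00000022844, chr16:35397312-35490873, minus strand), the least abundant member, was 3.93, 5.91 and 6.07, then 8.62 and 8.42, and 3.96, 6.75 and 5.98, so that only HRD1 KO was above WT (0.70 ± 0.30, adjusted p = 0.172, limma). After median-ratio scaling the HRD1 KO change of Pdia5 was 0.29, and with quantile normalization it was 0.19. In SEL1L KO its change was 0.06 ± 0.26, and -0.03 after median-ratio scaling.

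Txndc12 (ENSMUSG00000028567, chr4:108834601-108862127, plus strand) was the third most abundant member in WT and the seventh in both knockouts. Its FPKM was 33.04, 34.3 and 30.51 in WT, 37.42 and 47.47 in the libraries labelled HRD1 KO, and 30.34, 31.66 and 32.47 in those labelled SEL1L KO. Erp44 (ENSMUSG00000028343, chr4:48193323-48279558, minus strand), which retains adiponectin oligomers in adipocytes, was 17.91, 14.6 and 14.5, then 20.01 and 17.69, and 20, 17.88 and 17.09. Values of both genes in SEL1L KO ran into the WT range. Neither was called, with log2 fold changes in HRD1 KO of 0.37 ± 0.16 and 0.27 ± 0.18, which turned to -0.05 and -0.15 after median-ratio scaling. In SEL1L KO they were -0.05 ± 0.14 and 0.23 ± 0.16.

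Every library labelled HRD1 KO was above every WT library for 9 members, beside 51.1% of all genes, and every library labelled SEL1L KO for 7, beside 17.7%. Between the knockouts no member was called, where 0.00802% of genes were called higher, and 3 members (Txndc5, Txndc11 and Txndc12) were higher at limma's unadjusted p under 0.05, as were 15.5% of all genes. Pdia5, Txndc5, Txndc11 and Txndc12 were higher in both libraries labelled HRD1 KO than in any labelled SEL1L KO, as were 32.5% of all genes. Txndc5 had the smallest p of these, at 0.53 ± 0.18 (log2, 95% interval 0.13 to 0.94; adjusted p = 0.224, limma), and at 0.20 after median-ratio scaling. Pdia4 was at 0.01 ± 0.85, with an interval of -1.93 to 1.96. Without SEL1L KO replicate 1 it was at 1.09 ± 0.15 (adjusted p = 0.0383, limma), which passed 0.05 and not 0.01. Without that library P4hb was at 0.77 ± 0.13 against 0.45 ± 0.28 with it (adjusted p = 0.0552 and 0.417, limma), and Txndc5 at 0.66 ± 0.13 (adjusted p = 0.0717).

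**Figure D3:**
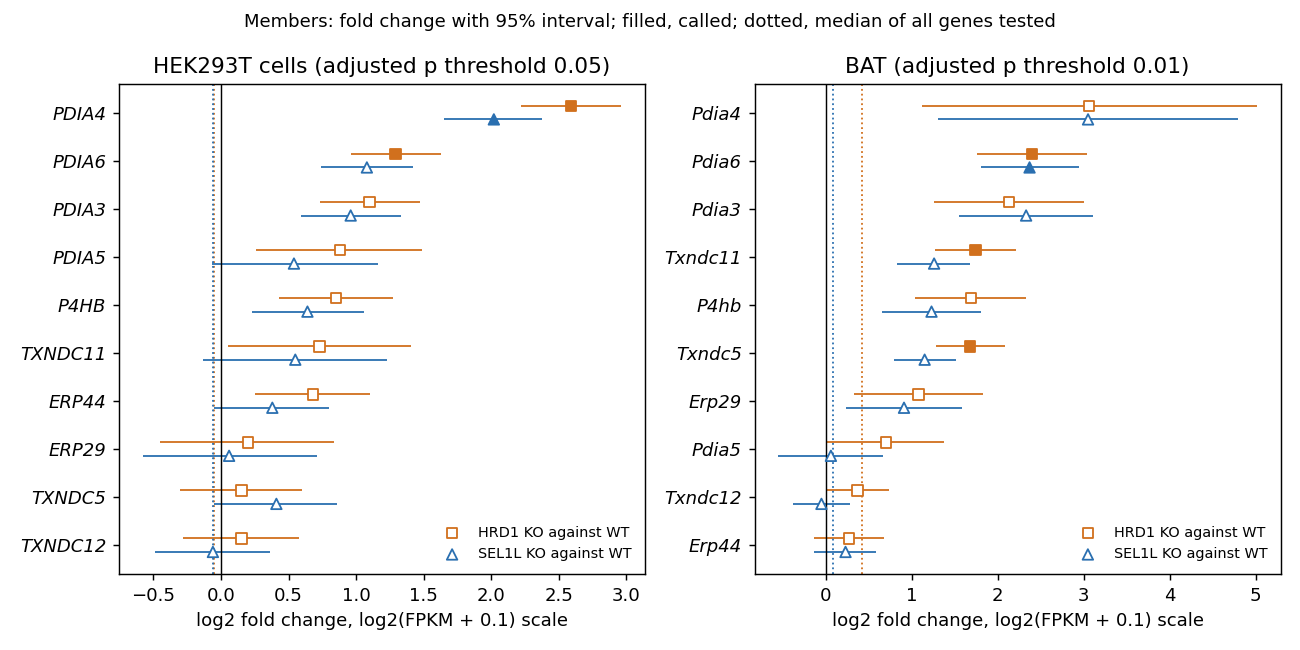
Log2 fold changes of the 10 members against WT with 95% intervals, in HEK293T (left) and BAT (right), ordered by the HRD1 KO change, with filled symbols for calls and dotted lines for the median of all genes. PDIA4 is at the top of both panels, TXNDC12 and ERP44 at the bottom of one each, and the BAT median in HRD1 KO is shifted to 0.42.

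Summed markers of other cells differed between the BAT groups, and their part in these results was not tested. In bulk tissue, fewer cells of a type and less RNA per cell cannot be told apart. Brown adipocyte markers summed to 22500 to 24800 FPKM for WT, 17100 to 22100 for HRD1 KO and 18200 to 22900 for SEL1L KO, with none at 0. Most of each sum was Fabp4, at 11645.9 to 17463.3 FPKM. Ucp1 was 2129.45, 2708.63 and 2041 in WT, 1138.28 and 1358.36 in HRD1 KO, and 3453.41, 1266.02 and 1586.69 in SEL1L KO. Dio2 was 37.09, 41.62 and 33.48, then 5.77 and 4.69, and 286.14, 13.23 and 8.37. Values of Adipoq and Ppargc1a ran into the WT range in both knockouts. Sums were higher in the knockouts for 8 macrophage markers (26.6 to 33.8 in WT, 51.7 in both HRD1 KO libraries, 50.2 to 79.1 in SEL1L KO), 6 endothelial markers (80.4 to 110, 138 to 182, 155 to 225) and 5 fibroblast markers (68.2 to 97.7, 139 to 173, 143 to 158). The 7 lymphocyte markers summed to 7.46 to 33.9 for WT, 18 to 72.9 for HRD1 KO and 45 to 115 for SEL1L KO, with 1 of them at 0 in all WT libraries. Skeletal muscle markers were 331 FPKM in HRD1 KO replicate 1, 57.8 in SEL1L KO replicate 1 and 1.01 to 11.4 elsewhere. Without HRD1 KO replicate 1, the HRD1 KO changes were 2.37 for Pdia6, 1.74 for Txndc5 and 1.82 for Txndc11.

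The makeup of the family is described by each member's share of the summed FPKM, with no test. HEK293T sums were 977 to 1130 FPKM for WT, 1940 to 2030 for SEL1L KO and 2230 to 2570 for the libraries labelled HRD1 KO, with no overlap between the groups. PDIA4 took 10.2% of that sum in WT, 27.7% in HRD1 KO and 22.5% in SEL1L KO, and went from the fifth to the first rank by mean. Its range overlapped those of ERP29 and TXNDC5 in WT and those of PDIA3 and P4HB in SEL1L KO, and lay above all others in HRD1 KO. P4HB, the first in WT, held the third rank in both knockouts, and its range overlapped that of PDIA3 there. ERP29 held 12.7% in WT, 6.64% in HRD1 KO and 7.04% in SEL1L KO. The lowest ranks were held by PDIA5, ERP44 and TXNDC11 in each group, and ERP44 and TXNDC11 overlapped in all of them.

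In BAT the sum was 247 to 259 FPKM in WT, 924 and 951 in the libraries labelled HRD1 KO, and 1750, 693 and 678 in those labelled SEL1L KO. Pdia6 and Pdia3 held the top ranks in every group, with 24% and 22.5% of the sum in WT and 33.9% and 26.4% in HRD1 KO. Pdia4 went from 5.01% and the eighth rank in WT to 11.3% and the third rank in HRD1 KO. Txndc12 held 13% in WT and 4.53% in HRD1 KO, where its FPKM was above that of every WT library. In WT BAT the ranges of Pdia6 and Pdia3, of P4hb and Erp29, and of Txndc5 and Erp44 overlapped, and other neighbours in the order did not.

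**Figure D4:**
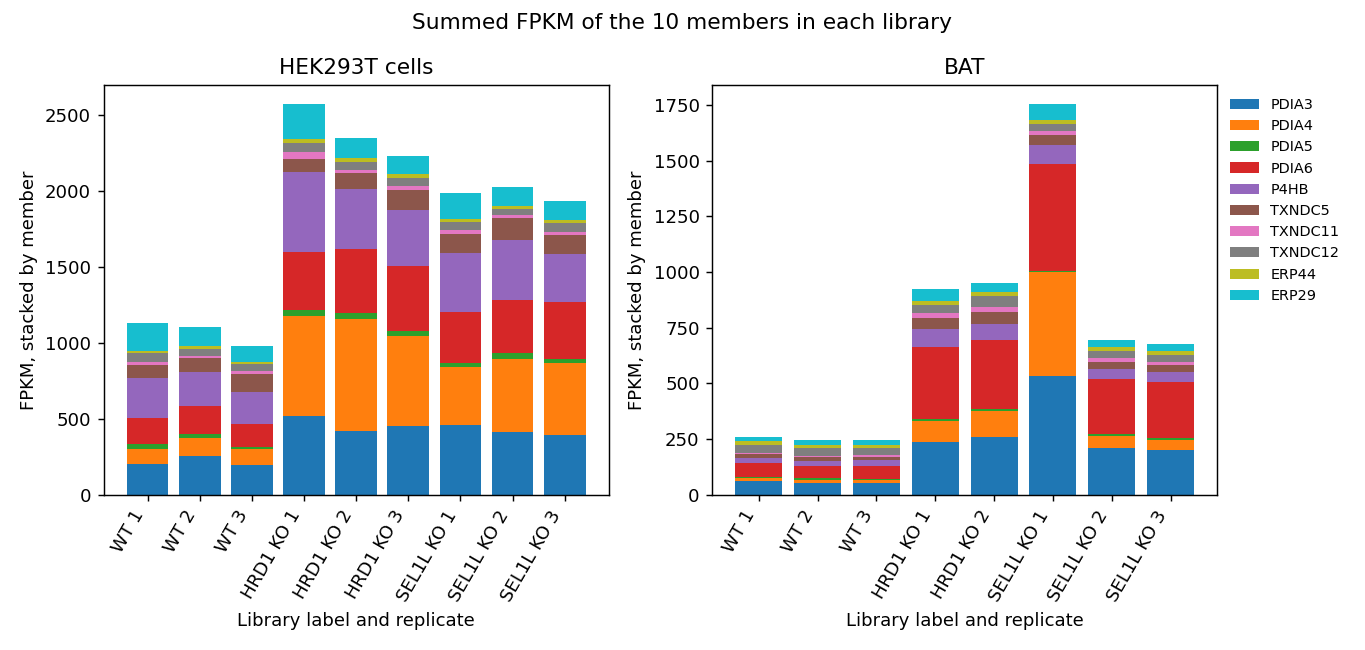
Summed FPKM of the 10 members in each library, stacked by member (colours), in HEK293T (left) and BAT (right). WT sums are 977 to 1130 in HEK293T and 247 to 259 in BAT, all knockout sums are higher, and BAT SEL1L KO replicate 1 reaches 1750.

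The members followed each other across libraries to different degrees. Over the 9 HEK293T libraries, which share the group structure, the closest pair was PDIA4 with PDIA6 (Pearson's r of log2 values 0.98), the most distant TXNDC5 with ERP29 (-0.58), and the median of 45 pairs 0.55. Over the 8 BAT libraries the closest pair was Pdia3 with Pdia6 (0.99), the most distant Pdia5 with Erp44 (-0.04), and the median 0.81. After subtraction of group means the median was -0.03 in HEK293T and 0.55 in BAT, where SEL1L KO replicate 1 is 1 of the 8 points. Genes outside the family whose pattern was most like the members' mean standardized log2 level were MYDGF (0.990), SLC22A31, SELENOS, PPIB and MIA3 (0.954) in HEK293T, and Arf1 (0.996), Sec13, Copa, Serp1 and Srpr (0.993) in BAT. MYDGF, SELENOS, PPIB and MIA3 encode proteins of the ER or its export sites, and Sec13 and Copa encode coat proteins of vesicles that run between ER and Golgi. P4HB and PDIA3 were the members closest to that mean in HEK293T (0.958 and 0.954) and Txndc5 in BAT (0.994), while TXNDC5 was the farthest in HEK293T (0.185).

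Genes that work with the family were read from fixed lists. These lists and the members were chosen with earlier results of these data known, and differences between their medians were not tested. Of 14 other PDI family genes, 8 were tested in each table and 0 were called in any comparison, with 0 of them at an unadjusted p under 0.05 in HEK293T. The largest changes were -0.36 for TMX3 and 0.23 for TXNDC15 in HRD1 KO and -0.31 for TMX3 and -0.20 for TMX4 in SEL1L KO in HEK293T, and in BAT 1.24 for Casq2 and 0.91 for Txndc16 in HRD1 KO and 1.06 for Casq2 and -0.60 for Tmx4 in SEL1L KO (log2, limma). Casq2 was low in BAT, at mean FPKM of 0.607 in WT, 1.6 in HRD1 KO and 1.43 in SEL1L KO. After median-ratio scaling its changes were 0.86 and 0.99. In BAT, 4 of the 8 reached an unadjusted p under 0.05 upward in HRD1 KO (25.4% of all genes did), and 1 upward (12.7%) and 2 downward (5.08%) in SEL1L KO. The list's median was 0.00 and -0.10 in HEK293T and 0.54 and 0.17 in BAT, where the medians over all genes were -0.05, -0.06, 0.42 and 0.09, against 0.79, 0.55, 1.68 and 1.19 for the 10 members.

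Of 11 genes on a list for disulfide oxidation, which also holds the selenoprotein genes SELENOF and SELENOM, 10 were tested in HEK293T and 11 in BAT. Of these, 0 were called (limma). At an unadjusted p under 0.05, 1 was higher in HRD1 KO and 1 in SEL1L KO in HEK293T, beside 0.943% and 0.715% of all genes. In BAT 2 were higher in each knockout, beside 25.4% and 12.7% of all genes, and 1 was lower in HRD1 KO, beside 2.02%. In HEK293T the largest values were 0.58 ± 0.39 for ERO1B and 0.58 ± 0.21 for SELENOM in HRD1 KO, and 0.49 ± 0.19 for PRDX4 and -0.34 ± 0.34 for ERO1A in SEL1L KO. In BAT, Ero1l, the mouse ERO1A, was 8.26, 10.61 and 8.48 FPKM in WT, 36.28 and 27.32 in the libraries labelled HRD1 KO, and 148.81, 21.02 and 11.43 in those labelled SEL1L KO. All knockout libraries were above WT, with SEL1L KO replicate 1 far above the other libraries. The log2 fold changes were 1.79 ± 0.89 and 1.85 ± 0.79 (adjusted p = 0.23 and 0.274, limma). Without SEL1L KO replicate 1 they were 1.79 ± 0.27 (adjusted p = 0.00555) and 0.77 ± 0.27 (adjusted p = 0.142, limma). Ero1lb was at 1.12 ± 0.38 and 0.88 ± 0.34, the second of which was 0.49 ± 0.20 without that library.

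Of 14 known partners of the members, 10 were tested in HEK293T and 11 in BAT. CALR, the lectin calreticulin that hands glycoproteins to PDIA3, was the only one called, in HRD1 KO HEK293T cells, beside 0.057% of all genes. Its mean FPKM there was 1190 against 427 in WT (1.49 ± 0.18, adjusted p = 0.0252, limma). In SEL1L KO the largest changes were 1.04 ± 0.18 for CALR (adjusted p = 0.253) and -0.61 ± 0.50 for P4HA1, a catalytic subunit partner of P4HB. In BAT, Calr and Edem1, a mannosidase that binds TXNDC11, were at 1.93 ± 0.33 and 1.50 ± 0.19 in HRD1 KO (adjusted p = 0.0225 and 0.0105, limma), and Calr and Canx at 1.90 ± 0.29 and 1.46 ± 0.20 in SEL1L KO (0.0334 and 0.0235), none past 0.01. At limma's unadjusted p under 0.05, 2 partners were higher in HRD1 KO and 1 in SEL1L KO in HEK293T, beside 0.943% and 0.715% of all genes. In BAT 6 and 3 partners were higher, beside 25.4% and 12.7%.

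The UPR targets gave calls in both tables. All 18 genes of the list were tested in each. At limma's unadjusted p under 0.05, 10 were higher in HRD1 KO and 11 in SEL1L KO in HEK293T, beside 0.943% and 0.715% of all genes. In BAT 14 and 13 were higher, beside 25.4% and 12.7%. In HEK293T 3 targets were called higher in HRD1 KO (0.057% of all genes), which were the chaperone HSP90B1 (1.94 ± 0.26), SDF2L1 (1.86 ± 0.23) and MANF (1.54 ± 0.20). MANF alone was called in SEL1L KO (1.67 ± 0.20, adjusted p = 0.0224, limma), beside 0.0317% of all genes. The medians over the list were 0.89 and 1.04. HSPA5 (2.80 ± 0.45, mean FPKM 240 in WT and 1720 in HRD1 KO) and HERPUD1 (2.08 ± 0.35) had the largest HRD1 KO changes. Neither passed (adjusted p = 0.126 and 0.149, limma). The smallest HRD1 KO changes were 0.01 ± 0.59 for ATF3, -0.05 ± 0.43 for TRIB3, 0.13 ± 0.19 for ATF4, 0.20 ± 0.51 for CHAC1 and 0.23 ± 0.47 for ASNS. In BAT 2 targets were called in HRD1 KO (0.289% of all genes), Sdf2l1 (5.76 ± 0.66, from 2.11 to 118 FPKM on average) and Xbp1 (2.10 ± 0.26). Sdf2l1 was called in SEL1L KO (5.72 ± 0.59), beside 0.0882% of all genes. The BAT medians over the list were 2.23 and 2.06. The 5 genes with the smallest HEK293T changes did not all stay small in BAT HRD1 KO. Trib3 was at 3.41 ± 1.14, Chac1 at 2.36 ± 1.57 and Atf4 at 1.45 ± 0.75. Asns was at 0.77 ± 0.26 and Atf3 at -0.21 ± 1.82, and none of the 5 was called. Sdf2l1 in SEL1L KO was 346.1, 73.15 and 57.98 FPKM, and its change without replicate 1 was 4.91 ± 0.22 (adjusted p = 0.000184, limma). These BAT calls were all lost with median-ratio scaling (Sdf2l1 at 5.35 and 5.63, Xbp1 at 1.68; adjusted p = 0.0301, 0.0209 and 0.0487, limma), with quantile normalization, without a filter and with the replicate block. Over fits that left out 1 library, changes in HRD1 KO ran from 5.62 to 5.96 for Sdf2l1 and from 1.83 to 2.31 for Xbp1, and most such fits lost the call. The HEK293T calls of CALR, HSP90B1, SDF2L1 and MANF were kept with median-ratio scaling and the replicate block. Without a filter all their HRD1 KO calls were lost (adjusted p = 0.0559 to 0.0839, limma). HSP90B1 also lost its call with quantile normalization (0.113, limma), while MANF in SEL1L KO was kept in both settings. Most fits without 1 library lost the calls, with changes in HRD1 KO of 1.35 to 1.61 for CALR, 1.74 to 2.16 for HSP90B1, 1.61 to 2.03 for SDF2L1 and 1.43 to 1.62 for MANF. None of these lists had a gene called lower, and 0 genes of the 4 lists were called between the knockouts in either table (limma). At an unadjusted p under 0.05, 1 of them was higher in HRD1 KO than in SEL1L KO in HEK293T, as were 1.18% of all genes, and in BAT 6 were higher and 1 lower, as were 15.5% and 1.18% of all genes.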

How the data were processed

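The authors sequenced polyA-selected RNA as read pairs on 1 flow cell, aligned it with STAR 2.7.8a to GRCh38 (HEK293T) or GRCm38 (BAT) and quantified genes by RSEM 1.3.3. What the authors deposited is FPKM to 2 decimals for 9 HEK293T and 8 BAT libraries, with reads that fit several genes divided by estimate. Their own test used DESeq2 on estimated counts, which FPKM does not allow. Depth in reads is unknown, and its relative size was taken from the value of 1 fragment in low genes, which leaves the precision of low values uneven between libraries.

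Here limma 3.58.1 (R 4.3.3) was fitted per table on log2(FPKM + 0.1) with a variance trend and all 3 groups, for genes that reached an FPKM of 1 in 3 or more HEK293T or 2 or more BAT libraries, with Benjamini-Hochberg adjustment. Fold changes on this scale understate changes of low genes. On simulated data with 200 genes shifted by 2 on the log2 scale for HRD1 KO against WT, 61.5% were recovered in HEK293T (15796 genes) and 42% in BAT (12473 genes), with 0 of wrong sign and with 5 and 0 unshifted genes called. Alternatives were a pseudocount of 1, no filter, median-ratio scaling, quantile normalization, a replicate block, other thresholds and leaving out each library. The deviations of same-numbered HEK293T libraries from their group means correlated at 0.216 to 0.485, so numbers paired them; in BAT they did not (-0.060 to 0.077).

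The members and gene lists were chosen with earlier results of these data known. Every member was named with every value. Of the other lists, the text names called genes, up to 5 per comparison by size, or else the 2 largest changes (comparisons with WT only), and the 5 genes per table most like the family's mean. For the UPR targets in HRD1 KO HEK293T cells, the 2 largest and 5 smallest changes were added once the results were known. The BAT HRD1 KO changes of those 5 genes were added in the same way. Gene positions are from GENCODE and promoter windows from RefSeq; tables used pandas 2.3.3 and SciPy 1.17.1, and plots matplotlib 3.10.9.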

Additional observations from a re-analysis of the deposited data

How the results depend on the processing

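Members called are counted in the order HRD1 KO against WT, then SEL1L KO against WT. In HEK293T (2 and 1), the counts were 7 and 4 at limma's unadjusted p under 0.05 (0.943% and 0.715% of all genes), where 1 member also passed between the knockouts, and 4 and 2 with the replicate block, which changed no other HEK293T count. They ran from 1 to 2 and from 0 to 1 when 1 library was left out, 0 being without SEL1L KO replicate 2. In BAT (3 and 1), they were 5 and 4 at an adjusted p under 0.05, 1 and 0 without a filter, and 0 and 0 with median-ratio scaling, with quantile normalization and with the replicate block, although BAT libraries shared only a number. Scaling and block left no gene of any kind called higher, save 0.0641% of genes in HRD1 KO with quantile normalization; a pseudocount of 1 gave 0 in SEL1L KO. Leaving out 1 BAT library gave 0 to 7 and 0 to 4, with 7 and 4 without SEL1L KO replicate 1. No member was called between the BAT knockouts under any of these fits. Scaling turned Erp44 in HRD1 KO to -0.15 (median-ratio) and -0.13 (quantile), Txndc12 in HRD1 KO to -0.05 (median-ratio) and Pdia5 in SEL1L KO to -0.03 and -0.06. Without 1 library, ERP29 ran from -0.09 to 0.42 in HRD1 KO and from -0.13 to 0.29 in SEL1L KO, TXNDC12 from -0.20 to 0.08 and Pdia5 from -0.14 to 0.28 in SEL1L KO; none of these was called. The cause of these changes was not tested, except that leaving out a library or the filter changes how many libraries or genes are tested. Pdia5 had the lowest mean FPKM of the members in each BAT group, and the part of depth in its values was not tested.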
